A study of Mus musculus with 8 samples.

Results

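The immunoproteasome and class I peptide loading genes are 10 genes named for their function: the inducible proteasome subunits Psmb8, Psmb9 and Psmb10, the PA28 activator chains Psme1 and Psme2, the peptide transporter chains Tap1 and Tap2, the loading factor Tapbp, the class I light chain B2m and the class I transactivator Nlrc5. They were picked by symbol out of 54532 gene identifiers in a table of read counts, each symbol matched 1 identifier, and all 10 passed the filter on low counts, together with 15472 genes in all. The counts come from bulk RNA-seq of frozen whole prostates of 8 male NOD mice, an inbred strain with spontaneous autoimmunity and prostatic inflammation. The 4 control mice (animals 1, 3, 65 and 69) received PBS vehicle and the 4 etanercept-treated mice (animals 17, 19, 50 and 52) received 4 mg/kg of etanercept, a soluble TNF receptor that traps TNF, by intraperitoneal injection. Injections were given 2 times per week for 5 weeks, and all mice were harvested at an age of 30 weeks. The study compared these groups to learn what TNF blockade does to the inflamed prostate. The study did not separate its treatment groups by diabetic status, and the status of these 8 mice is not given in the sources used here. Treated NOD mice of the study formed antibodies against etanercept.

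Cells cut cytosolic proteins into peptides with the proteasome. Interferon and TNF raise the inducible subunits, which take the place of constitutive subunits in newly built proteasomes and favor peptides that suit class I molecules. The TAP transporter moves such peptides into the endoplasmic reticulum, where tapasin, the product of Tapbp, bridges it to the class I heavy chain and B2m, and the loaded complex is shown to CD8 T cells at the surface. Leukocytes hold high levels of this machinery, and inflamed epithelium and stroma can induce it.

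Positions are those of GRCm38, the assembly called mm10 in the processing notes. The cluster on chromosome 17 within the major histocompatibility region holds Psmb9 (chr17:34181987-34187764, minus strand), Tap1 (chr17:34187553-34197225, plus strand), Psmb8 (chr17:34197721-34201454, plus strand) and Tap2 (chr17:34203527-34216321, plus strand). Tapbp lies apart on the same chromosome (chr17:33915899-33929292, plus strand). Psme1 (chr14:55578123-55581529, plus strand) and Psme2 (chr14:55587441-55591113, minus strand) are neighbors. Nlrc5 (chr8:94434356-94527272, plus strand) and Psmb10 (chr8:105935735-105938444, minus strand) share chromosome 8, and B2m is on chromosome 2 (chr2:122147686-122153083, plus strand). All 10 are annotated as protein coding.

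Since the members are known as cytokine-induced genes, 3 stretches before gene starts are shown. That of Tap1 for the most part also lies before the start of Psmb9. The others are those of Psmb8, the gene with the most negative log2 fold change, and of B2m, the gene with the highest level. The sequences are from RefSeq on GRCm38.p6, 250 bases up to the start, on the plus strand of the genome, which is the strand of all 3 genes named on the lines. Capitals mark matches to 4 motifs: the interferon-stimulated response element (ISRE, GAAANNGAA), the gamma-activated site (GAS, TTCNNNGAA), the CCAAT box (ATTGG) and the NF-kB consensus, searched on both strands.
Tap1, chr17:34187306-34187555: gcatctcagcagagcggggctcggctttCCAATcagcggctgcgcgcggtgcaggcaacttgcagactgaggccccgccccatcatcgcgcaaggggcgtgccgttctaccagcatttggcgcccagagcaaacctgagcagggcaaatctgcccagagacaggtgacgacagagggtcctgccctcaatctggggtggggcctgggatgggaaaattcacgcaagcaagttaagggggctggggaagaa
Psmb8, chr17:34197945-34198194: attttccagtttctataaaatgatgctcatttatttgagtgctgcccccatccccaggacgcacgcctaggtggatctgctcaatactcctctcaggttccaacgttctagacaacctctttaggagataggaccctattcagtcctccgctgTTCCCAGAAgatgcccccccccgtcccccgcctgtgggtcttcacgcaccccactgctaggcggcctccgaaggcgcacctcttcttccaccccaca
B2m, chr2:122147437-122147686: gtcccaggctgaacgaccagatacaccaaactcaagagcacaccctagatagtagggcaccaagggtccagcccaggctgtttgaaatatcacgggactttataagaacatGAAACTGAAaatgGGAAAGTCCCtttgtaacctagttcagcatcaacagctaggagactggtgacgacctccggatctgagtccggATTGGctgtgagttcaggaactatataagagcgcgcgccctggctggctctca

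The start of Psmb9 lies 226 bases before that of Tap1 on the opposite strand, so that their windows of 300 bases (250 before and 50 after the start) share 275 bases, and the capitals in the Tap1 line, 222 bases before its start, are a CCAAT box 8 bases before the start of Psmb9. The capitals in the Psmb8 line are a GAS match 97 bases before the start. Those in the B2m line are an ISRE match at 139, an NF-kB match at 126 and a CCAAT box at 53 bases before the start. RefSeq windows were given for 8 members, 9 windows in all, and for Tap2 and Nlrc5 none was at hand. In the other windows, Psme1 held an ISRE match 10 bases after its start, Tapbp held CCAAT boxes 248 and 165 bases before its start, and those of Psmb10 and Psme2 held none of the 4 motifs. Of all 32851 windows in the table, 8.56% held the ISRE letters, 8.3% the GAS letters, 8.46% the NF-kB consensus and 37.4% a CCAAT box. These matches are strings of letters, and no binding was measured. The starts are those of RefSeq: in the GENCODE annotation Psmb8 and Psmb9 begin further upstream, so that the Psmb8 stretch lies within the annotated Psmb8 gene and the Tap1 stretch within that of Psmb9.

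Total counts ranged from 13760669 to 25178942 per mouse, and the members had between 18 counts (Nlrc5 in control 69) and 124944 counts (B2m in control 1), so that counting error limits Nlrc5 far more than the others. In expression values scaled for total count and composition (CPM after TMM scaling, CPM below), the prostates expressed the luminal markers Krt8 and Krt18 at 421.7 ± 69.4 and 868.1 ± 222 in the control group and at 327 ± 59.1 and 611.4 ± 54.5 in the etanercept-treated group (SD, n = 4). Libraries differed in tissue content. The 5 seminal vesicle markers summed to 97204.0 CPM in etanercept 17, 4001 CPM in control 69 and 667.8 CPM in etanercept 50, and to between 0 and 27 CPM in the other 5 mice. The 5 leukocyte markers summed to 562.5 CPM in control 3 and to between 165.3 CPM (control 69) and 297.7 CPM in the others. The sum of the 8 luminal epithelial markers was lowest in control 69 (4279 CPM) and etanercept 50 (4343 CPM) and highest in control 1 (12443.5 CPM). Most of this spread was that of the luminal marker Pbsn, at 1094, 1743 and 9172 CPM in these mice. Krt8 was at 438.4, 356.6 and 475.7 CPM in the same mice, so the sum does not describe all luminal markers. Over all tested genes control 69 was closest to 2 treated mice, with a chi-square per gene of 54.4 against etanercept 50 and 70.3 against etanercept 19, and of 276.2 to 813.6 against the other controls. The members are also given without control 69 and without etanercept 17 where that moves a count or a value. Fewer cells of a type and less RNA per cell cannot be told apart in whole tissue.

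All 10 members had a lower fitted level in etanercept-treated than in control prostates, by a median of -0.73 on the log2 scale. Over all 15472 tested genes the median was -0.010, and 51% were lower by sign. The largest differences were those of the 3 inducible proteasome subunits and of Tap2, and the smallest was that of B2m. After Benjamini-Hochberg adjustment of the p-values from the quasi-likelihood test of edgeR, 0 members were called (adjusted p of 0.05 or less), as were 0 of all tested genes (0%), and the smallest adjusted p, 0.739, was the same over the members and over all genes. With an unadjusted p of 0.05 or less in that test, 7 of 10 members were lower (Psmb8, Psmb9, Psmb10, Psme1, Psme2, Tap2 and Tapbp) and 0 were higher, where 561 of all tested genes (3.63%) were lower and 463 (2.99%) were higher. DESeq2, the tool of the study's methods, placed 7 of 10 members in the lower direction with an unadjusted p of 0.05 or less, beside 841 of 23393 genes (3.6%). It called 21 genes in all and 0 members, whose smallest adjusted p in DESeq2 was 0.246, for Psmb8.

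Control 69 had the lowest control value in all 10 members, and control 1 the highest in all but Tap1. The groups were separated without overlap, with the treated mice lower, in 0 of 10 members, beside 2.53% of all tested genes, and with the treated mice higher in 0 members, beside 2.41%. Without control 69, this separation held for 8 of 10 members (all but B2m and Nlrc5), beside 6.9% of all tested genes, so that in these 8 genes control 1, 3 and 65 were the highest of the 8 prostates. The same omission gave 8 members lower with an unadjusted p of 0.05 or less, beside 5.98% of all tested genes, a median log2 fold change of -0.91 and a smallest adjusted p of 0.274 (quasi-likelihood test of edgeR, adjusted by Benjamini-Hochberg). The opposite change came from leaving out etanercept 19, 50 or 52, which left 4 members at that unadjusted p (Psmb8, Psmb9, Psmb10 and Tap2), beside 2.66%, 2.62% and 2.69% of all tested genes, and leaving out control 1 left 5, beside 2.82%. Without etanercept 17, the library with the highest seminal vesicle markers, 6 members passed it, beside 3.95% of all tested genes, the median was -0.94, and 1 member, Psme1, was separated without overlap, beside 4.47%.

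**Figure D1:**
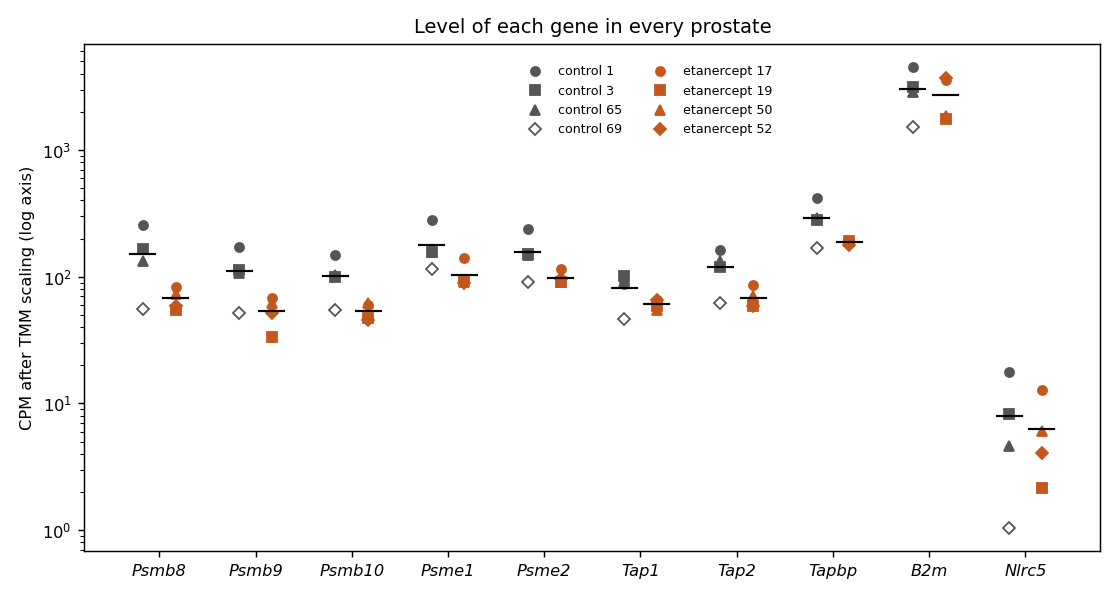
Level of each of the 10 genes in every prostate, as CPM after TMM scaling on a log axis, with 1 symbol per mouse (control in gray, etanercept-treated in orange) and a black line at each group mean. Control 69, the open diamond, is the lowest control in all 10 genes and lies among or below the etanercept-treated mice, while the other 3 controls lie above all etanercept-treated mice in 8 genes.

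Psmb8 encodes the inducible subunit beta5i, which takes the chymotrypsin-like site of the proteasome. Its level was 253.7, 166.6, 132.6 and 56.1 CPM in control 1, 3, 65 and 69 and 83.2, 54.9, 72.9 and 58.8 CPM in etanercept 17, 19, 50 and 52. The first 3 controls lay above all treated mice, and control 69 lay within the treated range. The means of the groups were 152.2 ± 81.9 and 67.5 ± 13.1 CPM (SD, n = 4), a difference of -55.7%. The log2 fold change was -1.17 (SE 0.38, 95% interval -2.03 to -0.32) with an unadjusted p of 0.0123.

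Psmb9 encodes beta1i, the inducible counterpart of the caspase-like subunit. It measured 171.5, 113.9, 107.3 and 51.9 CPM in control 1, 3, 65 and 69, against 67.8, 33.3, 62.1 and 51.6 CPM in etanercept 17, 19, 50 and 52. Control 69 was level with etanercept 52, and etanercept 19 was the lowest of all. The group means of 111.1 ± 48.9 and 53.7 ± 15.2 CPM (SD, n = 4) differed by -51.7%, and the log2 fold change was -1.05 (SE 0.35, interval -1.83 to -0.27, unadjusted p 0.0133).

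Psmb10 encodes beta2i, which takes the trypsin-like site. Control 1, 3, 65 and 69 had 148.7, 98.9, 103.3 and 54.2 CPM, and etanercept 17, 19, 50 and 52 had 60.0, 46.9, 62.4 and 45.9 CPM. Only control 69 lay within the treated range. Means were 101.3 ± 38.6 against 53.8 ± 8.58 CPM (SD, n = 4), the log2 fold change was -0.91 (SE 0.28, interval -1.53 to -0.29), and its unadjusted p of 0.00855 was the smallest among the members, and ranked 145 among all tested genes.

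Psme1 and Psme2 encode the alpha and beta chains of PA28, a ring that caps the proteasome and opens it to release peptides. Psme1 was at 282, 155.6, 156.7 and 114.3 CPM in control 1, 3, 65 and 69 and at 140.2, 94.2, 91.3 and 88.8 CPM in etanercept 17, 19, 50 and 52. The treated mice other than etanercept 17 were below all controls. Its means of 177.2 ± 72.6 and 103.6 ± 24.5 CPM (SD, n = 4) gave a log2 fold change of -0.77 (SE 0.28, interval -1.41 to -0.14, unadjusted p 0.0224). Psme2 was at 240.1, 151.7, 148.8 and 90.9 CPM in the same controls and at 114.9, 91.2, 90.4 and 95.4 CPM in the same treated mice. Control 69 and 3 of the treated mice were nearly level. With means of 157.9 ± 61.6 and 97.96 ± 11.5 CPM (SD, n = 4), its log2 fold change was -0.69 (SE 0.26, interval -1.28 to -0.10, unadjusted p 0.0271). Psme2b, a copy of Psme2 on chromosome 11 whose reads may be confused with it, was lower in every etanercept-treated than in every control mouse at 2.308 ± 1.495 against 7.22 ± 1.24 CPM (SD, n = 4), a small amount beside Psme2 itself.

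Tap1 and Tap2 are the chains of the peptide transporter. Tap1 measured 88.2, 100.4, 91.3 and 46.4 CPM in control 1, 3, 65 and 69 and 65.4, 58.9, 54.5 and 65 CPM in etanercept 17, 19, 50 and 52. All treated mice lay between control 69 and the other controls. The means of 81.6 ± 24.02 and 60.9 ± 5.21 CPM (SD, n = 4) gave a log2 fold change of -0.42 (SE 0.23, interval -0.94 to 0.10, unadjusted p 0.0993), which did not pass. Tap2 measured 163.4, 120.3, 132.8 and 61.6 CPM in these controls and 85.3, 58.7, 70.9 and 58.9 CPM in these treated mice. Here control 69 lay within the treated range. Its means were 119.5 ± 42.6 and 68.4 ± 12.6 CPM (SD, n = 4), with a log2 fold change of -0.80 (SE 0.28, interval -1.43 to -0.18, unadjusted p 0.0164).

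Tapbp encodes tapasin, which holds empty class I molecules at the transporter until a peptide fits. Its level was 420.7, 281.8, 289.9 and 169.1 CPM in control 1, 3, 65 and 69 and 186.8, 193.1, 190.0 and 177.0 CPM in etanercept 17, 19, 50 and 52. The treated mice were nearly identical, with a coefficient of variation (CV, SD over mean) of 3.73%, and the controls spread around them with a CV of 35.4%. The means of 290.4 ± 102.9 and 186.7 ± 6.97 CPM (SD, n = 4) gave a log2 fold change of -0.64 (SE 0.25, interval -1.19 to -0.08, unadjusted p 0.0293).

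B2m, the light chain of every classical class I molecule, gave another picture. It stood at 4518, 3132, 2873 and 1521 CPM in control 1, 3, 65 and 69 and at 3596, 1749, 1870 and 3689 CPM in etanercept 17, 19, 50 and 52. The treated mice split into a high and a low pair, and the groups overlapped over most of their range. With means of 3011 ± 1228 and 2726 ± 1060 CPM (SD, n = 4), the log2 fold change was -0.14 (SE 0.40, interval -1.03 to 0.75, unadjusted p 0.726). The interval leaves room for a level about as much lower as that of Psmb9 and for a higher level.

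Nlrc5, which drives transcription of class I genes, was the member with the fewest reads. Its level was 17.9, 8.27, 4.65 and 1.04 CPM in control 1, 3, 65 and 69 and 12.8, 2.14, 6.10 and 4.09 CPM in etanercept 17, 19, 50 and 52. Neither group stood apart, and both had wide spreads, with CVs of 90.9% and 73.6%. The means of 7.96 ± 7.23 and 6.27 ± 4.62 CPM (SD, n = 4) gave a log2 fold change of -0.35 (SE 0.78, interval -2.10 to 1.41, unadjusted p 0.667), and a difference in either direction was not detectable with these 8 mice. Adjusted by Benjamini-Hochberg over all tested genes in the quasi-likelihood test of edgeR, the 7 members lower at an unadjusted p had an adjusted one of 0.739, Tap1 of 0.788, Nlrc5 of 0.982 and B2m of 0.989.

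**Figure D2:**
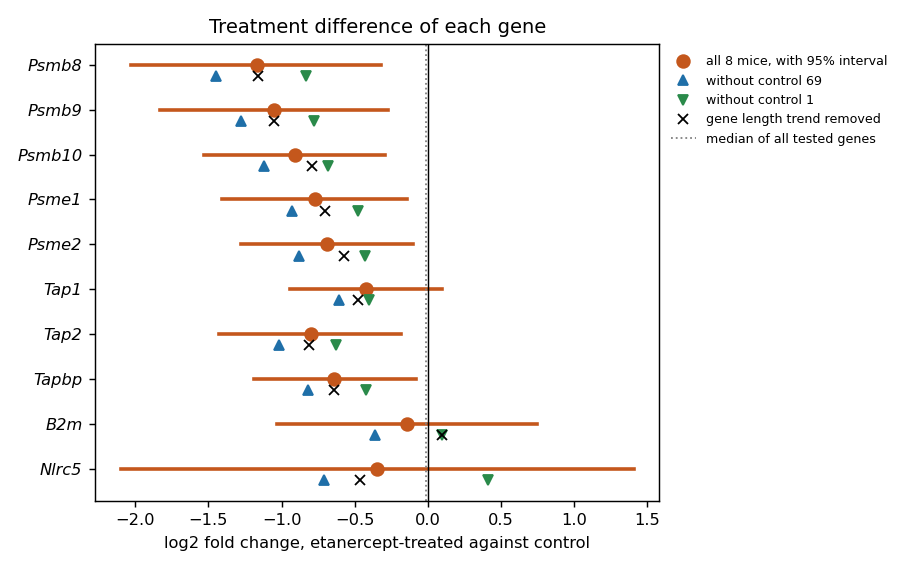
Log2 fold change of each of the 10 genes, etanercept-treated against control, from edgeR. Circles with bars are the values over all 8 mice with their 95% intervals, triangles the values without control 69 or control 1, and crosses the values with the trend of expression with gene length removed. For Psmb8 the value goes from -1.17 over all mice to -1.45 without control 69 and -0.83 without control 1, and for B2m and Nlrc5 it becomes positive without control 1, at 0.10 and 0.41.

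Leaving out a mouse moved 8 of the members within the negative range, from -1.45 to -0.83 for Psmb8, -1.28 to -0.78 for Psmb9, -1.12 to -0.68 for Psmb10, -0.95 to -0.48 for Psme1, -0.88 to -0.43 for Psme2, -0.61 to -0.30 for Tap1, -1.02 to -0.63 for Tap2 and -0.82 to -0.42 for Tapbp. Control 1 moved 3 of these by more than 1.5 times: without it, Psme1 went to -0.48, while Psme2 at -0.43 and Tapbp at -0.42 no longer passed an unadjusted p of 0.05 in edgeR. Expression values followed gene length to a different degree in the groups. For each mouse, exon length was rank-correlated with the deviation of each gene from its mean log2(CPM + 1) over the 8 mice. This correlation, relative to the other mice, was between -0.159 and -0.0113 in control and between 0.0640 and 0.155 in etanercept-treated mice. Of the members, 8 of 10 have exons shorter in total than the median tested gene (4180 nt). With that trend removed, 7 members were still lower with an unadjusted p of 0.05 or less, beside 3.57% of all tested genes, the median log2 fold change was -0.67, and B2m, the shortest member at 860 nt, went to 0.10.

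Per unit of exon length (FPKM, means of the control group), B2m was the most abundant member at 3501 ± 1428. Psme2 (89.5 ± 34.9), Psme1 (80.2 ± 32.9), Tapbp (80.0 ± 28.4), Psmb10 (59.4 ± 22.6), Psmb8 (45.0 ± 24.2), Tap2 (31.6 ± 11.3), Psmb9 (30.4 ± 13.4) and Tap1 (14.9 ± 4.39) followed, and Nlrc5 was last at 0.937 ± 0.852 (SD, n = 4). B2m and Nlrc5 stood clear of the rest, since the lowest prostate for B2m, 1768 FPKM, exceeded the highest for Psme2, 136.1, and the highest for Nlrc5, 2.10, was below the lowest for Tap1, 8.47. Neighbors between Psme2 and Psmb9 in this order differed by less than the larger of their SDs. The order in the middle also depends on the length used: with the length of the principal transcript, Psmb8 (93.5) and Psmb9 (82.2) came before Psmb10 (77.2).

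Whether the inducible subunits differed relative to the constitutive subunits they replace was asked with ratios of FPKM in each prostate. Psmb10/Psmb7 was 5.90, 4.55, 3.39 and 1.40 in control 1, 3, 65 and 69 and 1.59, 1.25, 1.79 and 1.27 in etanercept 17, 19, 50 and 52. Again the first 3 controls were above all treated mice and control 69 was not. The means were 3.81 ± 1.91 and 1.47 ± 0.261 (SD, n = 4), and the difference of -1.20 on the log2 scale had an exact two-sided permutation p of 0.0857 (0.238 adjusted over 5 ratios). Psmb9/Psmb6 was lower by a log2 difference of -0.58, from 0.267 ± 0.0758 to 0.177 ± 0.0434, with an exact permutation p of 0.143 (0.238 adjusted). Psmb8/Psmb5 gave -0.53, from 0.615 ± 0.292 to 0.409 ± 0.185, with an exact permutation p of 0.314 (0.343 adjusted), and without control 1, 3 or 69 it was -0.32, -0.33 or -0.89. None of the 5 ratios passed. The size of a ratio depends on the exon lengths used, while the log2 difference does not: with principal transcripts the means of Psmb10/Psmb7 were 1.68 and 0.650. The constitutive subunits themselves had log2 fold changes of -0.46 for Psmb5, -0.42 for Psmb6 and 0.33 for Psmb7.

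Within the transporter, Tap1/Tap2 was 0.373, 0.576, 0.475 and 0.519 in control 1, 3, 65 and 69 and 0.529, 0.692, 0.531 and 0.762 in etanercept 17, 19, 50 and 52. The treated mice were higher on average, by a log2 difference of 0.37 with an exact permutation p of 0.114 (0.238 adjusted), and control 3 lay among them. Psme1/Psme2 was 0.900 ± 0.0862 in control and 0.837 ± 0.0979 in etanercept-treated prostates (SD, n = 4), the steadiest of the 5 ratios, with a log2 difference of -0.11 (-0.18 to -0.05 when a mouse was left out) and an exact permutation p of 0.343 (0.343 adjusted). The smallest p that 4 mice against 4 can give in this test is 0.0286.

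**Figure D3:**
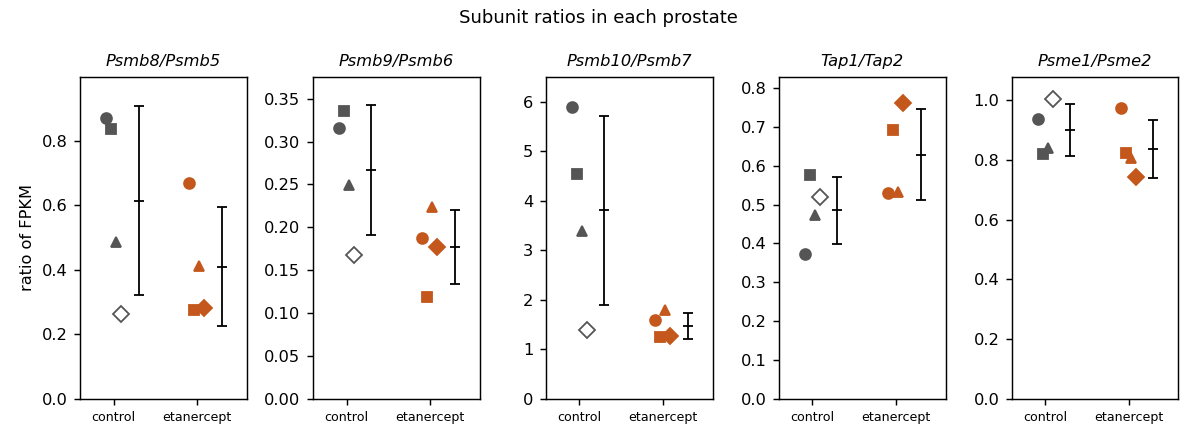
Ratio of FPKM for 5 pairs of subunits in each prostate, each panel with its own linear axis from 0. Points are mice, in gray for control and orange for etanercept-treated with the same symbols as in the plot of levels (circle, square, triangle and diamond for control 1, 3, 65 and 69 and for etanercept 17, 19, 50 and 52), and bars are the mean ± SD of 4. The Psmb10/Psmb7 ratio is between 3.39 and 5.90 in 3 controls and between 1.25 and 1.79 in the treated mice, with control 69 at 1.40.

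The 10 genes varied together from mouse to mouse. Over 8 prostates, Pearson's r of log2(CPM + 1) was positive in all 45 pairs of members, with a median of 0.86 and a range from 0.54 to 0.98, and with group means removed the median was 0.85. These points share libraries and their scaling, and r is given as a description. In 8 members control 1, 3 and 65 were highest, so r over all mice also holds that split. With group means removed, control 69 still lies apart from the other controls. On the mean of the standardized member values, control 1 (1.61), control 3 (0.74) and control 65 (0.61) were highest, etanercept 17 was near 0 (0.02), and etanercept 50 (-0.55), etanercept 52 (-0.56), etanercept 19 (-0.91) and control 69 (-0.95) were lowest. The 10 other tested genes most like this mean were Nenf and Mmp14 (r 0.983 each), Cisd3 (0.982), Lgals3 (0.98), Rpl31 (0.979), H2-T22 (0.978), Cnp (0.977), Rps25 (0.976), Rpl37a (0.975) and Igtp (0.973). H2-T22 is a class I heavy chain gene and Igtp an interferon-induced GTPase, while Rpl31, Rps25 and Rpl37a encode ribosomal proteins.

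Irf1 encodes an interferon-induced transcription factor that binds class I genes. Its level was 64.8, 55.9, 61.9 and 38.6 CPM in control 1, 3, 65 and 69 and 42.5, 39.5, 39.3 and 34.3 CPM in etanercept 17, 19, 50 and 52, with a log2 fold change of -0.51 (SE 0.19, unadjusted p 0.0236). The same 3 controls were highest for Irf1 and for 8 members, and Irf1 had a gap between them and the other 5 prostates, so coefficients over all mice are neither printed nor read, and 3 and 5 mice are too few for one within each set. With group means removed, which leaves control 69 apart from the other controls, Pearson's r with Irf1 was between 0.78 and 0.96 for these 8 members, 0.60 for B2m and 0.78 for Nlrc5, and 0 of 20 relations passed an exact permutation test within the groups after adjustment. Ptprc, which encodes the pan-leukocyte antigen CD45, had 15.6, 78.7, 23.1 and 16.6 CPM in the controls and 49.6, 25.1, 35.1 and 22.2 CPM in the treated mice in the same order, with a log2 fold change of -0.02. Control 1, the highest prostate for 9 members, was the lowest for Ptprc, yet the highest for the summed cytotoxic T and NK cell markers (76.7 CPM). Pearson's r of the members with Ptprc over 8 mice was between -0.09 and 0.34, Spearman's rho was between -0.12 and 0.29, and none of these passed an exact permutation test with adjustment over 20 relations. Without control 3 and etanercept 17, the mice farthest from the median of Ptprc, r was between -0.64 and -0.08.

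**Figure D4:**
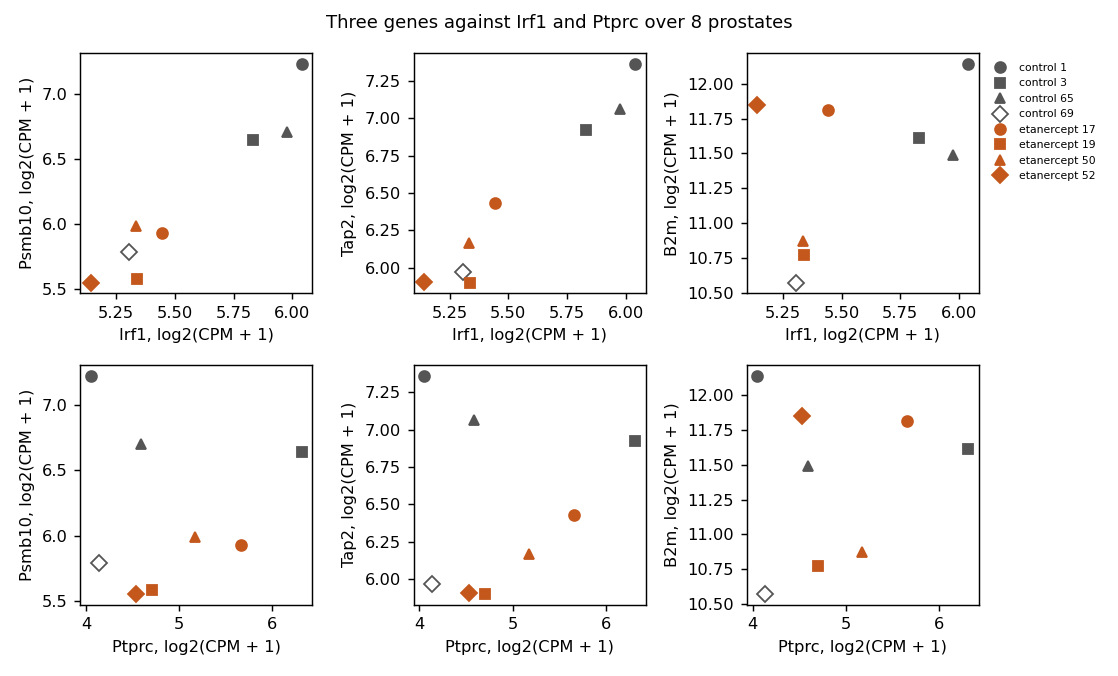
Levels of Psmb10, Tap2 and B2m, as log2(CPM + 1), against those of Irf1 (upper row) and Ptprc (lower row), with 1 point per prostate. For Psmb10 and Tap2, control 1, 3 and 65 lie apart at the upper right against Irf1, and against Ptprc the highest point, control 1, is at the left edge.

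The rest of the class I route was read from lists of genes. Beside the counts in every list, 51% of all tested genes were lower by sign. At an unadjusted p of 0.05 or less, 3.63% were lower and 2.99% higher. Of 15 tested class I heavy chain genes, 14 were lower by sign and 4 lower with an unadjusted p of 0.05 or less (3.63% of all tested genes were), with a median log2 fold change of -0.66 against -0.010 over all genes. Among them H2-Q7, a nonclassical heavy chain, was at 61.6 ± 29.2 CPM in control and 29.6 ± 5.91 CPM in treated prostates (SD, n = 4), a log2 fold change of -1.06, and it had the smallest p of the list, before H2-Q4 (-0.82) and H2-T10 (-0.66). Many of the H2 heavy chain genes are close paralogs, so that counts of single ones are uncertain, and their sequences were not compared here. NOD mice also carry their own haplotype of this region, while reads were mapped to the mouse reference genome. Of 11 loading partners and peptide trimming enzymes, 3 were lower by sign and 1 at an unadjusted p, with a median of 0.11. That gene was Tapbpl, a relative of tapasin, at 26.3 ± 4.93 and 18.3 ± 3.24 CPM (SD, n = 4) and a log2 fold change of -0.53.

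Lists of the other proteasome genes had medians closer to 0. Of 14 constitutive subunits of the core particle, 12 were lower by sign and 0 in either direction at an unadjusted p, with a median log2 fold change of -0.19. Of 18 subunits of the regulatory cap, 2 were lower (Psmd4, -0.47, and Psmc5, -0.42) and 1 higher (Psmd1, 0.41) at an unadjusted p, with a median of -0.15. Of 8 other activators and assembly factors, only the assembly chaperone gene Psmg4 was lower at it, from 25.5 ± 11 to 11.1 ± 2.26 CPM (SD, n = 4), a log2 fold change of -1.19, and the median was -0.13. These medians lie nearer to that of all genes than the members' median of -0.73, and the difference between lists was not tested.

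Among 19 tested regulators of class I genes, 10 were lower by sign, Irf1 was among those lower at an unadjusted p, and 0 were higher at it, with a median of -0.04. All 17 interferon-induced genes were lower by sign and 5 at an unadjusted p, with a median of -0.80. Ifi47 (-1.28), Gbp4 (-1.38) and Ube2l6 (-0.80) had the smallest p, and the summed level of the list was 277.3 to 892.7 CPM in control and 267.2 to 378.7 CPM in treated mice. All 10 class II genes, which serve the other presentation route, were lower by sign and 2 at an unadjusted p (H2-Aa, -1.19, and the class II transactivator gene Ciita, -1.03), with a median of -0.87.

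Marker genes of leukocytes and other cells are given beside the members, and their part in the members' values was not tested. All 5 pan-leukocyte markers were lower by sign and 0 at an unadjusted p, with a summed level of 165.3 to 562.5 CPM in control and 175.3 to 297.7 CPM in treated mice. All 7 T cell markers were lower by sign and 2 at an unadjusted p (summed level 57.1 to 143.4 CPM in control and 43.1 to 66.7 CPM in treated mice). The 7 tested cytotoxic T and NK cell markers were also all lower by sign, 2 of them at an unadjusted p (22.2 to 76.7 against 11.2 to 31.2 CPM). Cd8a, which marks the cells that read class I molecules, was at 9.30 ± 4.55 and 2.997 ± 1.779 CPM (SD, n = 4). All 7 macrophage markers were lower by sign and 3 at an unadjusted p, and their summed level was 310 to 957.9 CPM in control and 243.7 to 335.3 CPM in treated mice. For 5 plasma cell markers, 4 were lower by sign and 2 at an unadjusted p (848.9 to 4501 against 662 to 1367 CPM). B cell markers (5 of 5, median -0.79) and dendritic cell markers (5 of 6, median -0.21) were lower by sign, with 0 at an unadjusted p.

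Among the tissue's own cells, all 5 smooth muscle markers were higher by sign and 3 at an unadjusted p, with a summed level of 3038 to 6214 CPM in control and 5551 to 11060.4 CPM in treated mice. Of 8 luminal markers, 7 were lower by sign and 0 at an unadjusted p (4279 to 12443.5 against 4343 to 10779.4 CPM). Most of that range was the range of Pbsn, at 1094 to 9172 against 1743 to 8023 CPM. All 4 basal markers were lower by sign and 2 at an unadjusted p. Fibroblast markers had a median of -0.01 and endothelial markers of -0.46, with 0 at an unadjusted p in both. Genes of tissue around the gland varied most. The tested adipocyte markers were all lower by sign, 3 of 4 at an unadjusted p, and summed to 4.16 to 99.6 against 0.699 to 7.97 CPM. Skeletal muscle markers summed to 69.1 to 1717 against 688.8 to 1313 CPM, with 1 of 4 lower at an unadjusted p. In treated mice that sum was nearly all Acta1 (665.9 to 1288 CPM). Ckm was there at 15.9 to 23.4 CPM, and each other marker of the list at 2.68 CPM or less. Of 4 tested seminal vesicle markers, 0 passed. No gene of these lists was at 0 in every mouse.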

How the data were processed

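RNA of 8 frozen NOD prostates was poly(A)-selected, made into libraries with the NEBNext Ultra II kit and read from both ends over 150 nt. The submitters' processing notes name fastp, STAR 2.6.1d, featureCounts 1.5.0-p3, DESeq2 1.26.0 and mm10. The authors deposited raw counts of reads for each gene in each mouse, which were not normalized. The gene annotation and strand setting of the counting are not given in the sources used here. Reads in exons that overlap on opposite strands, such as the 212 bases shared by Psmb9 and Tap1, may therefore be split, shared or lost, as may the 149 bases that Tapbp shares with Zbtb22 on the same strand.

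Genes were named with GENCODE M21 (GRCm38), and 37 of 54532 identifiers, with 0.00429% of counts, did not match. Counts were scaled by TMM and tested with edgeR 4.0.16 under R 4.3.3, with filterByExpr with a minimum count of 10, the quasi-likelihood test on treatment alone and Benjamini-Hochberg adjustment over 15472 genes. A p of at most 0.05 was the threshold. The script was tested on simulated data with known changes. Ratios of FPKM were put to a two-sided exact permutation test, which went through all 70 assignments of mice. FPKM used the union of exons, and correlations log2(CPM + 1), with a pseudocount of 1. The members and lists were chosen with earlier results of these data known. Named genes are the members, the genes in ratios and relations, at most 3 genes per pathway list with the smallest p, and the first 2 genes of a marker list where given. Also named are Pbsn, which carries most of the spread of the luminal sum, the 10 genes most like the members' mean, and copies or overlapping genes. A gene that this rule names among the regulators of class I genes is not reported here. The alternatives were DESeq2 1.42.0, other factors (RLE, upper quartile, TMM without the 50 most counted genes), no filter, removal of length or GC trends (lowess, span 0.3) and leaving out each mouse. The length of the principal transcript, and leaving out mice for the relations and for the separation of all genes, were chosen after seeing the data. In all 28 pairs of mice the libraries differed well beyond sampling noise, so none was a copy of another.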

Additional observations from a re-analysis of the deposited data

Results flagged for a closer look

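Psme1 in etanercept 17 was at 140.2 CPM, away from the other etanercept-treated mice, which lay between 88.8 and 94.2 CPM. Its gap to the nearest was 0.894 of the range of the group, above Dixon's 95% critical value for 4 samples. This was found in 1 of 30 groups of 4 examined, where chance gives about 1 in 20. Without this mouse the log2 fold change of Psme1 was -0.95 in place of -0.77, and Psme1 was then lower in every etanercept-treated than in every control mouse.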

How the results depend on the processing

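No gene was called under any alternative in edgeR, and DESeq2 called 21 genes and 0 members. Leaving out 1 mouse gave 4 to 8 members lower at an unadjusted p, with 4 without etanercept 19, 50 or 52 and 8 without control 69. The members whose groups did not overlap numbered 0 to 8, with 8 without control 69, 1 without etanercept 17 (Psme1) and 0 without any of the others. Other factors, no filter and removed length or GC trends kept 7 members at an unadjusted p and 0 without overlap. Of 15472 genes, 625 (RLE), 637 (upper quartile) and 560 (TMM without the 50 most counted) were lower at an unadjusted p. With no filter 717 of 23795 were, and with the length or GC trend removed 3.57% or 3.3% of all tested genes. Of 150 log2 fold changes of members under 15 alternatives, 145 kept a negative sign. The exceptions were B2m, at 0.10 with the length trend removed and from -0.36 to 0.10 when a mouse was left out, and Nlrc5, from -0.96 to 0.41 when a mouse was left out. These reversals came without control 1 for both genes and without etanercept 19 or 50 for B2m (0.02 and 0.00). All 5 ratios kept their sign. Their smallest adjusted p with a mouse left out was 0.143 (exact permutation test, adjusted over 5 ratios). It came without control 69, for Psmb9/Psmb6 and Psmb10/Psmb7. When a mouse was left out, Psmb10/Psmb7 ranged from -1.63 to -0.93, Psmb8/Psmb5 from -0.89 to -0.32, Psmb9/Psmb6 from -0.79 to -0.40, Tap1/Tap2 from 0.25 to 0.46 and Psme1/Psme2 from -0.18 to -0.05. Of 20 relations with Irf1 or Ptprc, 8, all with Irf1, passed over all mice, a planned count from which nothing is read, since the mice lie in sets of 3 and 5 on Irf1, and 6 to 8 passed when a mouse was left out. With group means removed 0 passed. There r with Irf1 was 0.78 to 0.96 for these 8 members, with control 69 left apart from the other controls. No paired analysis was possible because the groups share no animal number. The spread of 4 mice limits all members, and counting error adds to it in Nlrc5 (from 18 counts).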
